A study of Mus musculus with 8 samples.

Results

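Ubiquitin-specific proteases (USPs) are the largest family of deubiquitinases, cysteine proteases that cut ubiquitin from proteins or take ubiquitin chains apart, and so reverse what the ubiquitin ligases do. In the haploid spermatid the ubiquitin system is best known for the modification of histones before they are replaced, for protein turnover as cytoplasm is lost, and for the sorting of vesicles into the acrosome, the secretory cap of the sperm head. Here the Usp genes were read in round spermatids, the haploid germ cells that follow meiosis. The members are all genes with a probe set annotated to a single gene whose symbol, in the platform annotation or as the current symbol by Entrez identifier, begins with Usp and a digit. That rule found 51 of the 18193 genes on the array, through 128 of its 45037 probe sets, and 1 probe set per gene was used, the one with the highest mean over all 8 arrays. Of the 51, 49 are named as proteases of the family. The other two are Usp6nl, a Rab GTPase-activating protein that carries the name by sequence likeness, and Usp46os2, an RNA transcribed opposite Usp46.

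The mutant group consisted of 4 Affymetrix arrays of round spermatids from BrdtΔBD1 mice, and the control group of 4 arrays of round spermatids from control mice. BrdtΔBD1 removes the first of the acetyl-lysine-binding bromodomains of Brdt, a chromatin protein made in male germ cells. The labels do not give the number of mutant copies or the genotype of the controls. Both groups were of the 129 Sv/Ev strain and 2 to 4 months old, each array held cells pooled from 7 animals, and the cells had been separated on an albumin gradient, with a purity that the labels do not state. Values are log2 intensities as normalized by the authors, so a difference of 1 is 2-fold. Intensities of different probe sets are not on one scale of RNA amount, and a level is therefore read as RNA amount only between arrays. In pools of cells, fewer cells of a type and less RNA per cell cannot be told apart.

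The brightest probe set of Brdt read 11.09, 10.68, 10.29 and 10.62 on mutant arrays 1 to 4, against 12.13, 12.24, 11.72 and 12.25 on control arrays 1 to 4. All mutant arrays lay below all control arrays (log2 difference -1.41, SE 0.19, adjusted p = 0.00735, limma; 0.0587 without control arrays 1 and 3). Whether that probe set reads the deleted stretch could not be settled here, so it does not check the labels. The mean of 17 round spermatid markers, protamine and acrosome genes among them, was between 13.15 and 13.41 on the mutant arrays and between 13.15 and 13.43 on the control arrays. The mean of 21 Sertoli cell markers was 7.10, 5.85, 7.42 and 6.95 on mutant arrays 1 to 4, against 4.85, 4.90, 5.62 and 5.50 on control arrays 1 to 4, and 19 of the 21 had a positive difference, with 7 past the threshold below. Of these markers, Wt1 averaged 5.10 ± 0.72 in mutant and 3.95 ± 0.26 in control arrays (SD, n = 4 each), while Amh, Fshr and Sox9 read under 4 on all arrays. Marker means of spermatogonia, spermatocytes, Leydig cells and the peritubular, vascular and blood group were 0.83, 0.56, 0.66 and 0.29 higher in mutant arrays on the log2 scale. The last 2 lists were mostly dim. Only 1 of 6 Leydig cell markers and 3 of 14 in the peritubular, vascular and blood list had a mean of at least 4. The difference was negative for 1 and 4 markers of these lists, and Aldh1a1 and Lum alone passed the threshold below. In RNA quality control arrays 1 and 3 differed from the rest: the 3' minus 5' difference of their Gapdh control probe sets was 1.68 and 2.05, against 0.33 to 0.94 on the other 6 arrays. Arrays of the 2 groups with the same replicate number deviated together from their group means, with correlations over all genes of 0.36 to 0.50, and a fit with the replicate number as a block is given wherever it changes a call.

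No Usp gene passed the test of mutant against control, while 3.71% of all genes did (limma, Benjamini-Hochberg adjusted p under 0.05 over all 18193 genes; 1.86% higher in mutant and 1.85% lower). At an unadjusted p under 0.05 there were 10 Usp genes, or 19.6%, beside 20.2% of all genes. Of these, 6 were higher in mutant arrays (Usp22, Usp14, Usp5, Usp33, Usp10 and Usp24), where all genes gave 11%, and 4 were lower (Usp20, Usp12, Usp30 and Usp21), where all genes gave 9.16%. The median log2 difference of the 51 was -0.004, against -0.02 over all genes, with 25 differences above 0 and 26 below. The groups lay fully apart for 5 Usp genes (9.80%), against 12.6% of all genes. In all 5, Usp22, Usp5, Usp33, Usp10 and Usp24, the mutant arrays were above, as for 6.15% of all genes, and no Usp gene had all mutant arrays below, as 6.49% of all genes had.

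None of the role groups below held a call, so their members are given by their values. With the replicate block 3 Usp genes rose, Usp22, Usp5 and Usp37, and none fell. The same fit called 6.6% of all genes higher and 4.94% lower, or 11.5% in all. The 3 of 51 (5.88%) are near the share called higher and below the share called in all. Across the 128 Usp probe sets, 0 passed over probe sets (smallest adjusted p 0.0897, limma), where 1.42% of all probe sets did. At an unadjusted p under 0.05 there were 26, or 20.3% beside 15.1% of all probe sets, and 16 had no overlap between groups, or 12.5% beside 9.48% of all probe sets. The 16 belonged to 13 genes, with mutant above in 13 probe sets and below in 3.

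The size of change that these arrays allow in the fit without the replicate block differed with the level of the probe set. The mean over all arrays was at least 10 for 14 Usp genes, from 4 to under 10 for 19, and under 4, near the floor of the normalized values, for 18. For all 14 of the first set the 95% interval of the log2 difference lay within 2-fold in either direction, and for 8 within 1.5-fold. In the second set it lay within 2-fold for 9 of 19, and the intervals of Usp10, Usp20, Usp21, Usp22, Usp30, Usp37, Usp45, Usp46, Usp5 and Usp54 reached further. These widths include what arrays of the same replicate number share. With the block the SE fell from 0.33 to 0.10 for Usp37 and from 0.45 to 0.16 for Usp22. For Usp14 it went from 0.188 to 0.192. The narrow intervals of the 18 dim genes carry less, since the normalization compresses values near the floor and an RNA change there shows as a smaller difference.

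**Figure D1:**
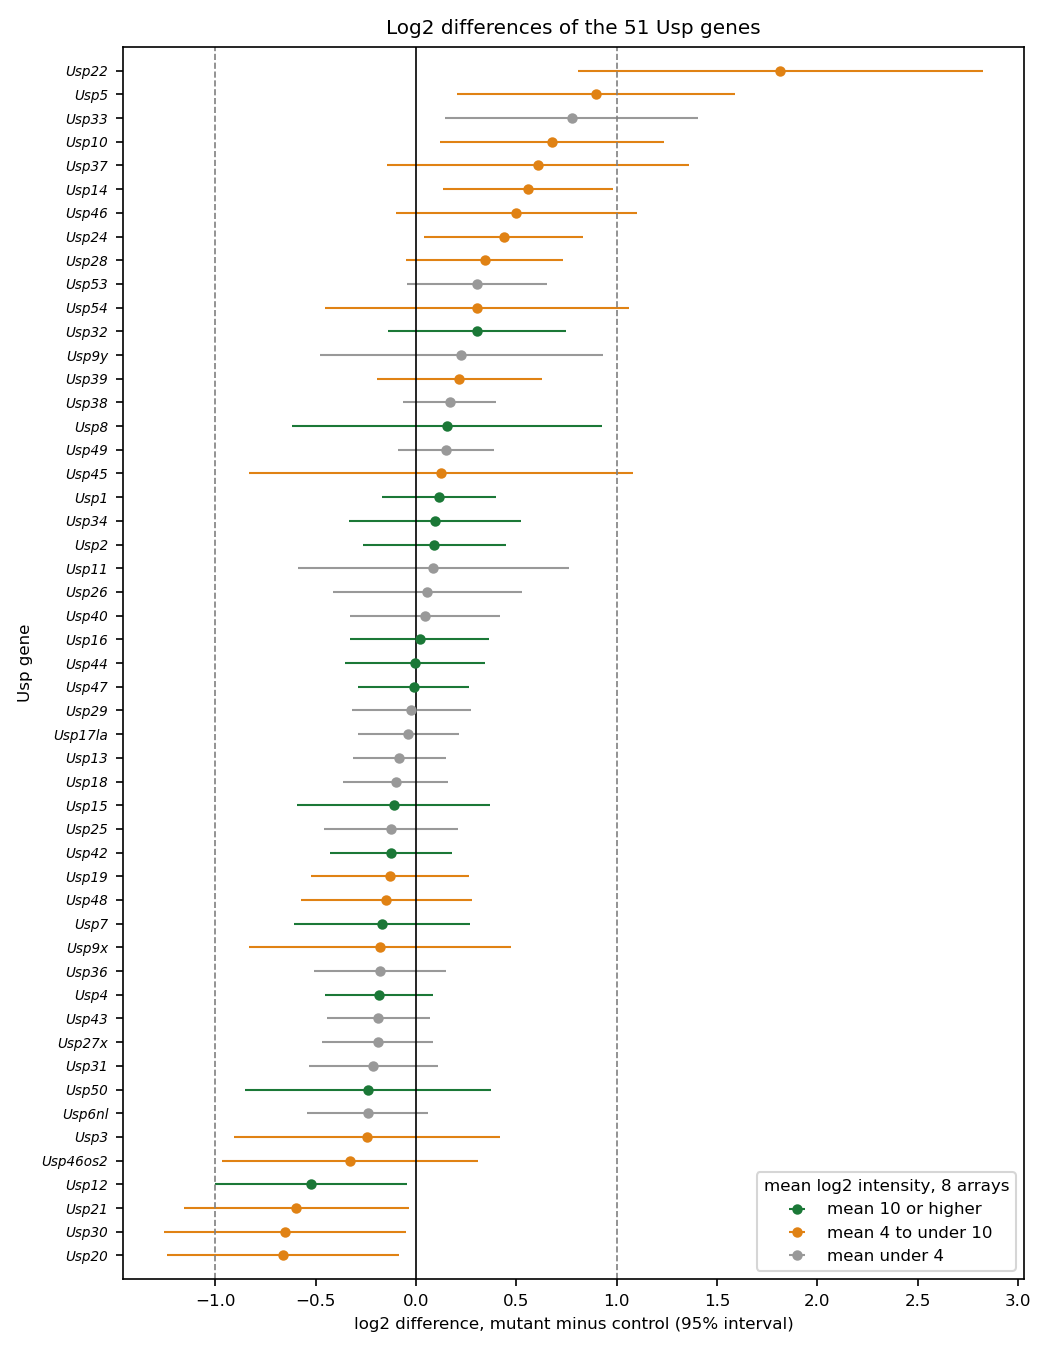
Log2 difference (mutant minus control, horizontal axis) of each of the 51 Usp genes with its 95% interval from limma, coloured by the mean log2 intensity over 8 arrays; dashed lines mark 2-fold in either direction. The 14 genes with a mean of 10 or higher stay within the dashed lines, and Usp22 at 1.82 is the 1 gene whose difference exceeds 2-fold.

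Among the USPs of chromatin and DNA repair, 16 genes, Usp22 differed most. It is the deubiquitinase of SAGA, a transcription coactivator that also acetylates histones, and takes ubiquitin from histones H2A and H2B. Usp22 read 7.05, 5.08, 6.90 and 6.04 on mutant arrays 1 to 4, against 4.80, 3.68, 4.88 and 4.44 on control arrays 1 to 4. Every mutant array was above every control array, and array 2 was the lowest of each group. Usp22 averaged 6.27 ± 0.91 in mutant and 4.45 ± 0.55 in control arrays (SD, n = 4 each), a log2 difference of 1.82 (SE 0.45, adjusted p = 0.0607, limma) and a 95% interval of 0.81 to 2.83. In each of the 4 pairs the mutant array read more, by 1.40 to 2.25, and with the replicate block Usp22 rose (adjusted p = 0.00504, limma). Its adjusted p over 17 alternatives ran from 0.00504 to 0.188, under the threshold in 6, and it was 0.188 without control arrays 1 and 3. Averaged over its probe sets, the difference was 1.09. A further Usp22 probe set near the floor, 1456043_at, was also higher on every mutant array (log2 difference 0.36, SE 0.14). The Sertoli marker mean, given above, was likewise higher in mutant arrays and had its lowest mutant value on array 2. Among control arrays its lowest value was on array 1, at 4.85, where Usp22 read 4.80, and on array 2 it was 4.90, where Usp22 read 3.68. The mean of 10 spermatogonia markers, leaving out the deubiquitinase Uchl1, ordered the arrays within each group as Usp22 did. It read 5.75, 5.03, 5.34 and 5.09 on mutant arrays 1 to 4, against 4.51, 4.42, 4.80 and 4.43 on control arrays 1 to 4. The marker means of spermatocytes, Leydig cells and the peritubular, vascular and blood group did not keep that order. The part of Sertoli cells or spermatogonia in the Usp22 difference was not tested.

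Usp22 works only inside a small module with Atxn7, Atxn7l3 and Eny2, which anchor and activate it. Atxn7, the anchor to SAGA, read 3.95, 4.24, 3.27 and 2.93 on mutant arrays 1 to 4, against 2.92, 2.66, 2.89 and 2.86 on control arrays 1 to 4. Its mutant arrays lay above its control arrays, at a level near the floor (log2 difference 0.76, SE 0.27, adjusted p = 0.154, limma). Eny2, also a factor of mRNA export, averaged 8.78 ± 0.64 in mutant and 8.05 ± 0.48 in control arrays (SD, n = 4 each), with an adjusted p of 0.277 (limma), and 0.0169 with the replicate block. Atxn7l3, the activating subunit, averaged 7.04 ± 0.19 in mutant and 7.42 ± 0.45 in control arrays (SD, n = 4 each), with an adjusted p of 0.388 (limma). Of the 17 cofactors of USPs listed, 2 fell and 0 rose (11.8%, beside 3.71% of all genes), and their median log2 difference was -0.06, against -0.02 over all genes. A mean of at least 4 was found for 15 of the 17, and 6.66% of all genes at that level passed. With the block 17.6% of the cofactors passed, beside 11.5% of all genes. Taf6l, a structural SAGA subunit, read 5.94, 6.57, 6.72 and 6.70 on mutant arrays 1 to 4, against 7.94, 7.73, 8.42 and 8.14 on control arrays 1 to 4. Its groups were well apart, with a log2 difference of -1.58 (SE 0.21, adjusted p = 0.00735, limma). Atxn7l1, a relative of Atxn7, read 8.72, 9.30, 9.66 and 9.96 on mutant arrays 1 to 4, against 10.69, 11.03, 10.46 and 10.83 on control arrays 1 to 4. It had a log2 difference of -1.34 (SE 0.26, adjusted p = 0.0293, limma), and its adjusted p rose to between 0.0542 and 0.0889 without any 1 of the 4 control arrays or mutant array 3. Without control arrays 1 and 3 together, Taf6l and Atxn7l1 missed the threshold (adjusted p = 0.1 and 0.149, limma).

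**Figure D2:**
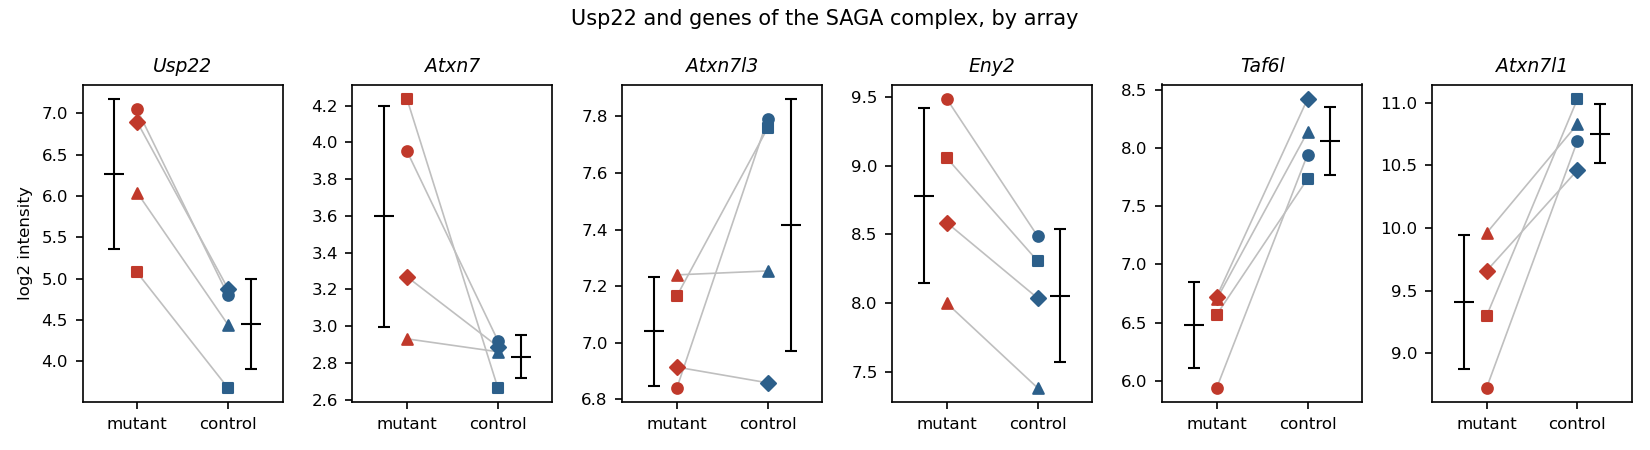
Log2 intensity (vertical axis, a scale of its own in each panel) of Usp22 and 5 genes of the SAGA complex on 4 mutant (left, red) and 4 control arrays (right, blue); grey lines join arrays of the same replicate number, marked by the same symbol, and black bars give mean ± SD. Usp22 and Atxn7 are higher on every mutant array, and Taf6l and Atxn7l1 lower on every mutant array.

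The other histone deubiquitinases differed less. Usp21, which acts on H2A, read 7.17, 8.46, 7.91 and 7.997 on mutant arrays 1 to 4, against 8.51, 8.65, 8.24 and 8.52 on control arrays 1 to 4. It was lower in the mutant array of all 4 pairs, the groups overlapped, and it had a log2 difference of -0.60 (SE 0.25, adjusted p = 0.219, limma), or -0.36 without mutant array 1. Usp16, an H2A deubiquitinase of the cell cycle, read 11.50, 10.81, 11.06 and 11.02 on mutant arrays 1 to 4, against 11.19, 11.06, 11.02 and 11.04 on control arrays 1 to 4. The difference of 0.02 was smaller than the spread of either group (interval -0.33 to 0.36). Its other probe set, 1430203_at, near the floor, gave -0.39 (SE 0.13) with overlap. Usp44, which acts on H2B and on the mitotic checkpoint, read 12.42, 11.94, 11.96 and 11.90 on mutant arrays 1 to 4, against 12.16, 12.22, 11.81 and 12.04 on control arrays 1 to 4. Mutant array 1 was the highest of its group and the groups overlapped (difference -0.0038, interval -0.35 to 0.34). Usp3, a further H2A enzyme, read 6.46, 5.47, 5.07 and 5.21 on mutant arrays 1 to 4, against 6.15, 5.80, 5.70 and 5.54 on control arrays 1 to 4. It had a difference of -0.24 (interval -0.91 to 0.42), and its dimmer probe set 1425023_at was higher on every mutant array (0.57, SE 0.22), opposite in sign to the brighter one.

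Usp12 and Usp46 are close relatives that both need the cofactors Wdr48 and Wdr20. Usp12 read 11.28, 10.38, 10.82 and 11.03 on mutant arrays 1 to 4, against 11.26, 11.41, 11.16 and 11.77 on control arrays 1 to 4. Mutant values were lower in 3 of 4 pairs, with overlap (log2 difference -0.52, SE 0.21, adjusted p = 0.208, limma; a difference of -0.22 averaged over its probe sets). Usp46 had a difference of the opposite sign, at 4.87 ± 0.45 in mutant and 4.37 ± 0.41 in control arrays (SD, n = 4 each), or 0.50 (adjusted p = 0.337, limma). A dimmer Usp46 probe set, 1436518_at, had all mutant arrays above (0.73, SE 0.18, adjusted p = 0.0897 over probe sets, limma), the smallest adjusted p of any Usp probe set. Whether Usp12 and Usp46 differ from each other was not tested. Usp46os2, the RNA opposite Usp46, had a difference of -0.33 (SE 0.28), and the cofactors Wdr48 and Wdr20 had 0.23 and 0.03 (adjusted p = 0.696 and 0.914, limma).

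Usp1 pairs with Wdr48 to act on the repair proteins FANCD2 and PCNA, and male mice without it are infertile. Usp1 read 13.32, 13.37, 13.31 and 13.43 on mutant arrays 1 to 4, against 13.18, 13.24, 13.02 and 13.52 on control arrays 1 to 4. The mutant arrays lay close together inside the control range, and the interval of the difference was -0.17 to 0.40. Usp7, a regulator of p53 and of Polycomb complexes, read 10.90, 10.38, 10.63 and 10.56 on mutant arrays 1 to 4, against 11.25, 10.46, 10.89 and 10.55 on control arrays 1 to 4. The groups overlapped (interval -0.61 to 0.27), and its 3 brightest probe sets gave differences of -0.17, -0.14 and -0.01. Usp47, an enzyme of base excision repair, read 12.45, 12.36, 12.39 and 12.46 on mutant arrays 1 to 4, against 12.72, 12.33, 12.33 and 12.32 on control arrays 1 to 4. Control array 1 was its highest value and the other 7 arrays lay close together (difference -0.01, interval -0.29 to 0.27), while a dimmer probe set, 1426976_at, had all mutant arrays above (0.61, SE 0.17, adjusted p = 0.138 over probe sets, limma). Of the other 6 members of this group, Usp28, a stabilizer of Myc, had the largest difference, 0.34 (adjusted p = 0.313, limma), and Usp11, Usp27x, Usp36, Usp48 and Usp49 lay between -0.19 and 0.15.

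Of the USPs that serve the proteasome and the pool of free ubiquitin, both genes read above the floor were higher in mutant arrays without passing. Usp5, which takes apart unanchored ubiquitin chains, read 6.77, 7.93, 6.88 and 6.54 on mutant arrays 1 to 4, against 6.03, 6.53, 5.70 and 6.26 on control arrays 1 to 4. All mutant arrays were above all control arrays, with a log2 difference of 0.90 (SE 0.30, adjusted p = 0.144, limma). With the replicate block Usp5 rose (adjusted p = 0.0368, limma). Without the block its adjusted p after leaving out 1 array ran from 0.117 to 0.285, and its difference was 0.60 without mutant array 2. Usp14, which sits on the proteasome and is disrupted in the ataxia mouse, read 7.02, 6.74, 6.55 and 6.75 on mutant arrays 1 to 4, against 5.79, 6.20, 6.21 and 6.65 on control arrays 1 to 4. Control array 4 reached into the mutant range, and the difference was 0.56 (SE 0.19, adjusted p = 0.141, limma; 0.34 without control arrays 1 and 3). All 4 Usp14 probe sets pointed the same way, by 0.20 to 0.56, but all except the brightest were near the floor, with means from 2.70 to 3.23. Usp13, a relative of Usp5, read 2.80 ± 0.12 in mutant and 2.88 ± 0.03 in control arrays (SD, n = 4 each), near the floor.

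Among the USPs of endosomes, mitochondria and membrane traffic, the related genes Usp20 and Usp33 had differences of opposite sign, neither past the threshold, and the contrast between them was not tested. Both act on receptors and on the von Hippel-Lindau pathway. Usp20 read 8.70, 9.33, 9.74 and 9.91 on mutant arrays 1 to 4, against 10.17, 9.76, 10.18 and 10.22 on control arrays 1 to 4. It was lower in the mutant array of every pair, mutant array 1 was the lowest and mutant array 4 overlapped control array 2 (log2 difference -0.66, SE 0.25, adjusted p = 0.191, limma; a difference of -0.42 without mutant array 1). Of its 3 further probe sets, 1423778_at and 1436245_at had all mutant arrays below all control arrays, with differences of -1.23 (SE 0.33, adjusted p = 0.114 over probe sets, limma) and -0.38 (SE 0.12, adjusted p = 0.166, limma), and the dimmest gave -0.17. Usp33 read 4.64, 3.15, 3.80 and 3.46 on mutant arrays 1 to 4, against 2.95, 3.02, 3.01 and 2.96 on control arrays 1 to 4. Its control arrays lay close together near the floor, and the mutant arrays stood above them by unequal amounts (log2 difference 0.78, SE 0.28, adjusted p = 0.163, limma; a difference of 0.48 without mutant array 1). With array weights, an alternative, Usp33 passed (adjusted p = 0.0479, limma); its adjusted p ran up to 0.434 in 16 alternatives.

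Usp30, the deubiquitinase of the mitochondrial outer membrane that opposes mitophagy, read 5.87, 5.75, 5.48 and 5.23 on mutant arrays 1 to 4, against 6.99, 5.72, 6.19 and 6.05 on control arrays 1 to 4. It was lower in 3 of 4 pairs with overlap (log2 difference -0.65, SE 0.27, adjusted p = 0.213, limma), and passed when the arrays were quantile normalized again (log2 difference -0.83, adjusted p = 0.048, limma), while its difference was -0.40 without control array 1 and -0.30 without control arrays 1 and 3. Usp8, which sorts endosomal cargo and is found at the forming acrosome, read 11.17, 11.85, 11.07 and 11.64 on mutant arrays 1 to 4, against 10.89, 11.80, 10.48 and 11.94 on control arrays 1 to 4. Its values followed the replicate number, higher on arrays 2 and 4 of each group, more than they followed the group (difference 0.15, interval -0.62 to 0.92), and the sign turned without control arrays 1 and 3 (-0.44). The endosomal partners of Usp8, Stam and Hgs, had differences of 0.43 and -0.53 (adjusted p = 0.48 and 0.252, limma). Usp32, an enzyme of Golgi and endosome membranes, read 11.56, 12.10, 11.64 and 11.81 on mutant arrays 1 to 4, against 11.19, 11.75, 11.17 and 11.80 on control arrays 1 to 4. Its mutant array was the higher one in every pair, with overlap (difference 0.30, interval -0.14 to 0.74). Usp19, anchored in the endoplasmic reticulum, had a difference of -0.13 (interval -0.53 to 0.26). Usp54 had one of 0.30 and Usp53, a protein of cell junctions, one of 0.30, while Usp6nl, the Rab regulator, gave -0.24 (adjusted p = 0.677, 0.313 and 0.362, limma).

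Among the 14 USPs of signalling and the cell cycle, Usp10 and Usp24 had all mutant arrays above all control arrays, without passing the test. Usp10, which binds the stress granule protein G3BP and also acts on p53, read 5.22, 6.39, 5.27 and 5.42 on mutant arrays 1 to 4, against 4.98, 4.91, 4.76 and 4.93 on control arrays 1 to 4. The control arrays lay close together, and mutant array 2 stood well above the other mutant arrays (log2 difference 0.68, SE 0.25, adjusted p = 0.167, limma; a difference of 0.41 without mutant array 2). Usp24, one of the longest enzymes of the family, read 7.36, 7.57, 7.55 and 7.51 on mutant arrays 1 to 4, against 7.34, 6.58, 7.29 and 7.04 on control arrays 1 to 4. Mutant array 1 read little more than control array 1, so the groups were only just apart (log2 difference 0.44, SE 0.17, adjusted p = 0.204, limma; a difference of 0.27 without control array 2). Usp37, a cell cycle enzyme of cyclin A, read 5.95, 4.92, 5.72 and 4.99 on mutant arrays 1 to 4, against 5.43, 4.26, 5.12 and 4.34 on control arrays 1 to 4. Its groups overlapped, yet the mutant array exceeded its own control by 0.51 to 0.66 in every pair, and it rose with the replicate block (log2 difference 0.61, adjusted p = 0.0169, limma) but not without it (adjusted p = 0.355). Its dimmer probe set, near the floor, gave -0.17 (SE 0.25), and the mean of both gave 0.22.

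**Figure D3:**
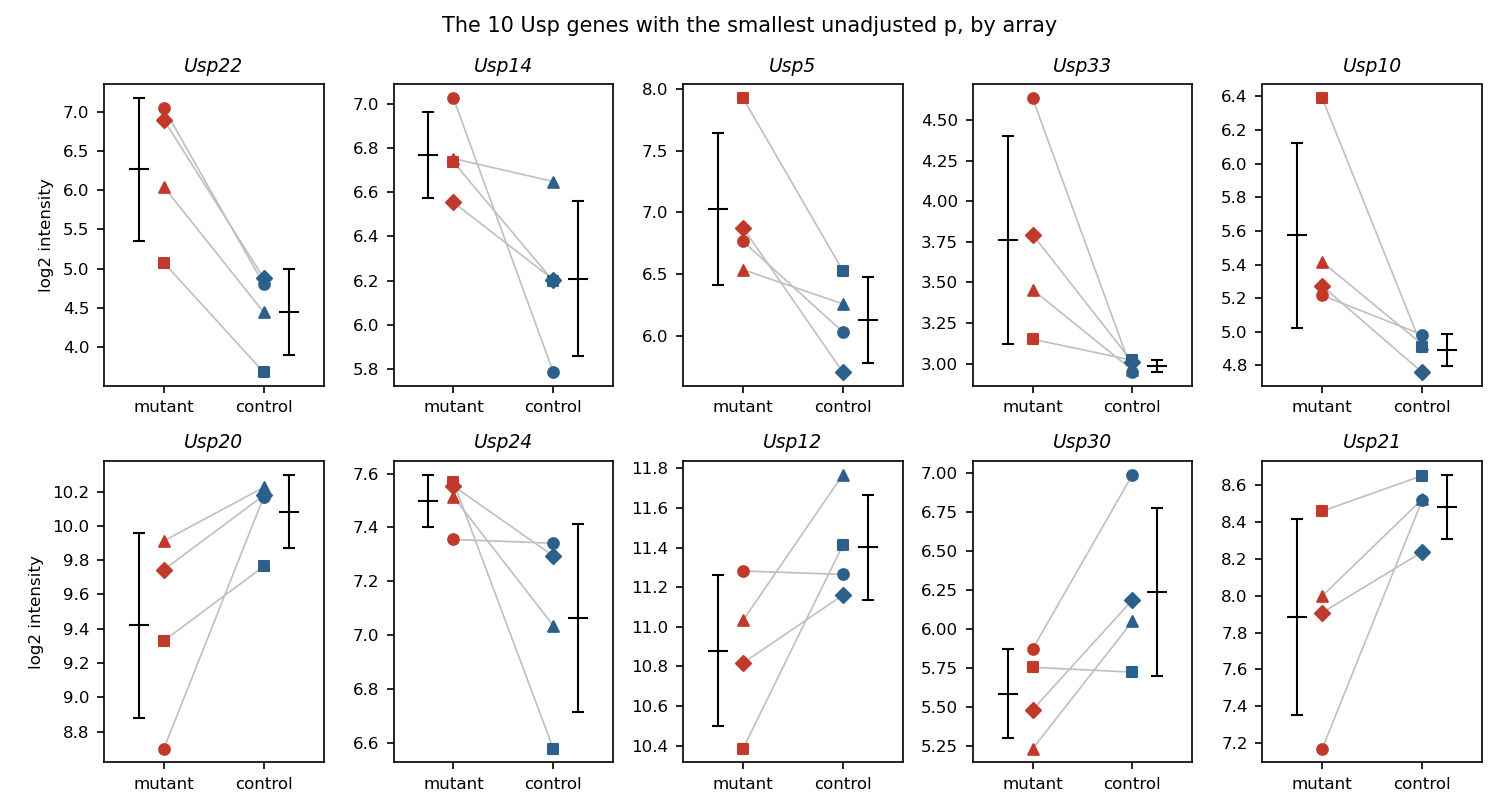
Log2 intensity (vertical axis, a scale of its own in each panel) of the 10 Usp genes with the smallest unadjusted p on 4 mutant (left, red) and 4 control arrays (right, blue); grey lines join arrays of the same replicate number, marked by the same symbol, and black bars give mean ± SD. Mutant arrays are all above control arrays for Usp22, Usp5, Usp33, Usp10 and Usp24, and the groups overlap for the other 5.

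Usp2, a clock-controlled enzyme whose loss makes male mice subfertile, read 13.30, 13.41, 13.63 and 13.85 on mutant arrays 1 to 4, against 13.44, 13.26, 13.38 and 13.75 on control arrays 1 to 4. The groups overlapped fully (log2 difference 0.09, SE 0.16, adjusted p = 0.802, limma). Its other probe set, 1417169_at, had all mutant arrays below all control arrays (difference -0.47, SE 0.14, adjusted p = 0.147 over probe sets, limma), so the sign of Usp2 depended on the probe set. Usp42, expressed during mouse spermatogenesis, read 11.56, 11.16, 11.31 and 11.36 on mutant arrays 1 to 4, against 11.71, 11.48, 11.29 and 11.40 on control arrays 1 to 4. Its interval was -0.43 to 0.18, among the narrowest of the bright members. Usp50 read 12.18, 11.19, 11.45 and 11.67 on mutant arrays 1 to 4, against 11.59, 12.22, 11.37 and 12.28 on control arrays 1 to 4. Its groups overlapped (interval -0.85 to 0.37), as did those of Usp34, of the Wnt pathway (difference 0.09, interval -0.34 to 0.52). Usp45, of which the protein removes ubiquitin from the repair nuclease subunit ERCC1, spread most of all members within the mutant group, between 4.86 and 6.91. Usp18, the protease for the ubiquitin-like protein ISG15, and Usp25, Usp31, Usp38, Usp40 and Usp43 all averaged under 4, with differences from -0.21 to 0.17.

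None of the 4 genes tied to RNA processing reached an unadjusted p under 0.05. Usp4 and Usp15 are relatives recruited to the spliceosome by SART3. Usp4 read 11.25, 11.62, 11.58 and 11.48 on mutant arrays 1 to 4, against 11.80, 11.56, 11.66 and 11.64 on control arrays 1 to 4. Usp15 read 12.43, 12.24, 11.89 and 12.27 on mutant arrays 1 to 4, against 12.18, 12.52, 11.82 and 12.76 on control arrays 1 to 4. The groups overlapped for both, with differences of -0.18 (interval -0.45 to 0.09) and -0.11 (interval -0.59 to 0.37). Usp39, a spliceosome protein that has lost protease activity, averaged 9.78 ± 0.21 in mutant and 9.57 ± 0.32 in control arrays (SD, n = 4 each) and exceeded its own control on every mutant array by 0.05 to 0.46 (adjusted p = 0.572, limma). Pan2, a deadenylase subunit once named Usp52, had a difference of 0.49 (interval -0.05 to 1.03, adjusted p = 0.294, limma).

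Members on the sex chromosomes mostly read near the floor in both groups. Most genes of these chromosomes are known to be repressed at this stage, and its part in the low readings was not tested. Different probe sets are not on one scale, so the shares that follow do not compare RNA amounts. Of the 4 X-linked members 1 had a mean of at least 4, Usp9x, against 32 of 46 autosomal members, and over all genes the shares were 32.7% for the X chromosome and 50.1% for autosomes. Usp9x, a large enzyme of cell polarity and traffic, read 9.05, 7.49, 8.28 and 8.23 on mutant arrays 1 to 4, against 8.73, 8.42, 8.33 and 8.30 on control arrays 1 to 4. The mutant arrays spanned more than the control arrays, around the same centre (difference -0.18, interval -0.83 to 0.47), and the 6 dimmer Usp9x probe sets gave differences from -0.31 to 0.66. Usp26, known as a testis gene of the X chromosome, read 3.23, 2.60, 2.26 and 2.69 on mutant arrays 1 to 4, against 2.39, 2.72, 2.55 and 2.90 on control arrays 1 to 4. Usp9y, the Y-linked relative of Usp9x, read 4.81, 3.43, 3.85 and 4.19 on mutant arrays 1 to 4, against 4.32, 3.92, 3.87 and 3.28 on control arrays 1 to 4. The groups overlapped for both, and 3 of 4 pairs of Usp26 had the control array higher (intervals -0.42 to 0.53 for Usp26 and -0.48 to 0.93 for Usp9y). Usp29, an imprinted autosomal gene of the Peg3 cluster, read 3.004, 3.04, 3.11 and 2.97 on mutant arrays 1 to 4, against 3.095, 3.17, 2.72 and 3.22 on control arrays 1 to 4. Usp17la, of the cytokine-induced Dub family, averaged 2.01 ± 0.12 in mutant and 2.05 ± 0.12 in control arrays (SD, n = 4 each). For these 4 a signal near the floor does not show that the RNA was absent.

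**Figure D4:**
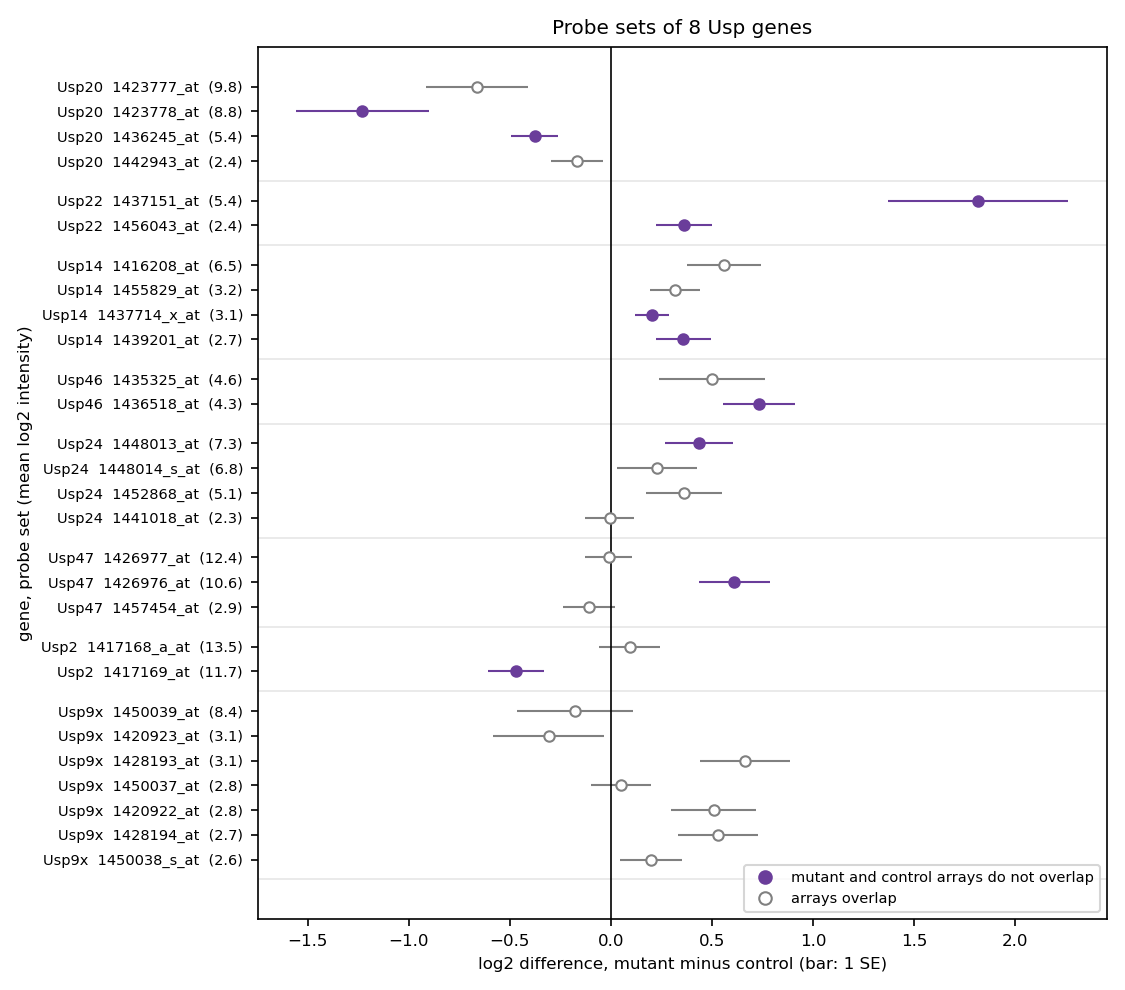
Log2 difference (mutant minus control, horizontal axis) with 1 SE for each probe set of 8 Usp genes, listed with its mean log2 intensity, brightest first; filled points mark probe sets with no overlap between the groups. The probe sets of Usp20, Usp22, Usp14 and Usp46 point 1 way within each gene, while those of Usp47, Usp2 and Usp9x lie on both sides of 0. Those of Usp24 are above 0 except the dimmest, at -0.0075.

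Upstream sequence was available for 39 of the 51 genes (RefSeq, GRCm38.p6, 250 bases before the gene start, 1 window per gene). The windows of 4 members described above are shown, Usp37 and Usp10 as higher in every pair and Usp20 as lower in every pair. Usp2 is shown as one of several genes with probe sets of opposite sign. Capitals mark matches, on either strand, to the letters GGGCGG (GC box), TGACG (part of the cAMP response element bound by the spermatid factor CREM), TGACGTCA (the full element, which holds the partial one) and CCAAT; a match on the other strand reads CCGCCC or CGTCA.
Usp37: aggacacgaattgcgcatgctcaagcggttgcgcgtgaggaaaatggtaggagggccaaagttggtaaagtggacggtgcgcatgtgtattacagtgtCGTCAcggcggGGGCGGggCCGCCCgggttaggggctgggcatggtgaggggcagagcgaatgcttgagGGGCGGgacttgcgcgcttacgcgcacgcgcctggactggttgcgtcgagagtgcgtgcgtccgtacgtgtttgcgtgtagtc
Usp10: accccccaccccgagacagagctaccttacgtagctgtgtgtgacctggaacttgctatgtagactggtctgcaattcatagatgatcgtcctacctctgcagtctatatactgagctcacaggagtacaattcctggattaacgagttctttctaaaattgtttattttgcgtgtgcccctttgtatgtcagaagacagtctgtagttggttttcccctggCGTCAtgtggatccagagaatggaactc
Usp20: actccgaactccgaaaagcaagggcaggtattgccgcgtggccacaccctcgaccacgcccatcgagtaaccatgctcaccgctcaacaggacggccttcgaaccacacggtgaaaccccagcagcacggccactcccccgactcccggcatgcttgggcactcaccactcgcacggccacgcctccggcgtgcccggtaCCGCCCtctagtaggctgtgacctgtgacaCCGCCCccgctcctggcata
Usp2: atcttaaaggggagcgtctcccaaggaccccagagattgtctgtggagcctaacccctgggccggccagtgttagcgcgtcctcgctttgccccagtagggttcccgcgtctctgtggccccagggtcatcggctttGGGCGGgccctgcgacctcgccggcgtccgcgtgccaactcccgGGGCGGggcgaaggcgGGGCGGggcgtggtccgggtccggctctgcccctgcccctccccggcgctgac
The windows lie at chr1:74505822-74506071 on the minus strand for Usp37, and on the plus strand at chr8:119910110-119910359 for Usp10, chr2:30982029-30982278 for Usp20 and chr9:44084670-44084919 for Usp2. Usp37 held 3 GC boxes and 1 partial element, Usp10 1 partial element, Usp20 2 GC boxes and Usp2 3 GC boxes. A GC box was found in 24 of the 39 windows (61.5%), against 32.7% of all 32851 windows, beside a median GC content of 64.8% and 52.4%. The 32851 windows were not reduced to 1 per gene or limited to genes on the array, so the 2 sets are unlike. The partial element was in 9 (23.1%, against 17.8%), CCAAT in 11 (28.2%, against 33.8%) and the full element in 0 (against 1.55%). These are letters in a window and not sites of binding.

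Across arrays, the mean of the Usp genes differed little. Their mean was 7.04, 6.82, 6.85 and 6.85 on mutant arrays 1 to 4, against 6.95, 6.78, 6.74 and 6.83 on control arrays 1 to 4. Mutant array 1 held the highest value of 16 of the 51 genes (31.4%, against 22.5% of all genes) and mutant array 2 the lowest value of 12 (23.5%, against 16.6%). Within pairs, the mutant array was the higher one for 29, 26, 30 and 22 Usp genes in pairs 1 to 4, or 56.9%, 51%, 58.8% and 43.1%, beside 46.6%, 48.7%, 50.2% and 49.5% of all genes. The 33 members with a mean of at least 4 had a median SD of 0.334 in mutant and 0.301 in control arrays, beside 0.339 and 0.287 for all 8998 genes at that level. The mutant array was higher in all 4 pairs for 10 members (Usp10, Usp14, Usp22, Usp24, Usp32, Usp33, Usp37, Usp38, Usp39 and Usp5), or 19.6% beside 17.7% of all genes. It was higher in 0 pairs for 5 of the 51 (Usp18, Usp20, Usp21, Usp27x and Usp43), beside 18.9% of all genes.

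In 4 further lists of the ubiquitin system 0 genes passed without the block, where 3.71% of all genes did. The first list held 38 genes of other deubiquitinases and their relatives, the deadenylase subunit Pan2 among them. An unadjusted p under 0.05 (limma) was found in 3 higher and 5 lower, or 21.1% beside 20.2% of all genes. Their median log2 difference was 0.09, against -0.02 for all genes. With the block 4 of the 38 passed (10.5%), near the 11.5% of all genes. Those 4 were Otud7a (-1.09, adjusted p = 0.0216), Atxn3, the ataxin of Machado-Joseph disease (-0.84, 0.0151), Josd2, its relative (-0.77, 0.0245), all lower, and Uchl1 (1.57, 0.0266), which was higher (limma with the block). Uchl1 is also a spermatogonia marker, and the mean of the 10 other such markers was 5.75, 5.03, 5.34 and 5.09 on mutant arrays 1 to 4, against 4.51, 4.42, 4.80 and 4.43 on control arrays 1 to 4; the part of such cells was not tested. Of 18 histone ubiquitin ligases and their partners an unadjusted p under 0.05 was found in 3 higher and 1 lower (22.2%), and with the block Rnf20, a ligase for H2B, rose by 1.25 (adjusted p = 0.009, limma). Of 4 measured E1 enzymes, which activate ubiquitin and its relatives, 1 was higher at that level (25%), and with the block Uba3, of the NEDD8 pathway, rose by 1.41 (adjusted p = 0.037, limma). Of 8 SUMO proteases and modifiers 1 was higher at that level (12.5%), and with the block Sumo3 and Senp6 rose by 0.46 and 0.49 (adjusted p = 0.034 and 0.0456, limma). The block thus called 5.56% of the ligases and 25% each of the short E1 and SUMO lists, beside 11.5% of all genes. Without the block the median log2 differences of the ligase, E1 and SUMO lists were 0.25, 0.54 and 0.10, against -0.02 for all genes.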

How the data were processed

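The files hold log2 intensities per probe set of Affymetrix arrays, normalized before deposit by the authors. GCRMA and limma are listed in the submitters' processing notes, without versions or roles; GCRMA compresses dim probe sets, so fold changes near the floor are understated. The scale was checked from the values. Precision is limited by the number of arrays. Scanner files were not used here. Of 45101 probe sets, 64 Affymetrix controls were left out. Genes were named from platform annotation, with symbols updated by Entrez identifier; 34945 probe sets carry 1 gene, 932 several and 9160 none, and those with several name no gene.

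Groups and replicate numbers came from sample titles. The comparison of mutant with control used limma 3.58.1 under R 4.3.3 (group as the only term, moderated variances, both directions), adjusted by Benjamini-Hochberg over all 18193 genes, threshold 0.05. SE and 95% intervals are those of the moderated model. The procedure was tested on simulated data. The labels do not say what a replicate number marks. Deviations from group means correlated over genes at 0.364, 0.416, 0.495 and 0.407 for the 4 same-numbered pairs and between -0.26 and -0.02 for the others, so the numbers were taken to pair the arrays and a fit with the replicate number as a block was added. Each array held a pool of animals, and the labels do not say whether any pools shared animals. The p-values measure the spread between arrays. Without the block, that spread includes what arrays of the same replicate number share.

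Members and gene lists were chosen with earlier results of these data known. Values on every array are given for the 10 members with the smallest unadjusted p, the 8 with the highest mean and a set of 14 chosen for known roles. Usp37, Usp39 and single probe sets beyond that rule were picked out after their values were seen. Alternatives were the block, leaving out arrays, other normalizations, level filters, probe set rules, array weights and a variance trend. Promoter windows were read from RefSeq.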

Additional observations from a re-analysis of the deposited data

Results flagged for a closer look

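In 8 of 102 groups of 4 arrays, 1 array of a Usp gene lay far from the other 3, with a gap, as a share of the group's range, above Dixon's 95% critical value; chance alone gives about 1 in 20 groups. Mutant array 2 read 6.39 for Usp10, against 5.22 to 5.42 on the other mutant arrays (gap 0.830 of the range), and 5.24 for Usp46os2, against 4.42 to 4.48 (0.925). The same array was low for Usp34, at 9.56 against 10.21 to 10.34 (0.837). Mutant array 1 was high for Usp44, at 12.42 against 11.90 to 11.96 (0.888), and for Usp54, at 7.22 against 5.66 to 5.92 (0.832). Among control arrays, array 1 was high for Usp11, at 3.86 against 3.15 to 3.21 (0.918), and for Usp47, at 12.72 against 12.32 to 12.33 (0.964), and array 2 was low for Usp20, at 9.76 against 10.17 to 10.22 (0.878). Without mutant array 2 the Usp10 difference was 0.41, against 0.68 with it.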

How the results depend on the processing

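Over 849 comparisons of a Usp gene with an alternative, the direction and the side of the threshold held in 786, the sign turned in 53 and a call was gained in 10. The sign turned at least once for 23 Usp genes, all with a main difference of at most 0.304 in size, and for none of the 10 with the smallest unadjusted p. With the replicate block 3 Usp genes passed (Usp22, Usp5 and Usp37) and 2100 genes in all, against 675 without it; it made no other call among the Usp genes. The Usp count was 2 with array weights (Usp22 and Usp33), 1 after quantile normalization (Usp30), and 1 (Usp22) with genes of a mean of at least 4, with the mean of all probe sets of a gene and with a variance trend. Leaving out 1 array gave 0 to 1, the 1 being Usp22 without mutant array 2. The count over all genes was 1040 after quantile normalization, 1655 with array weights, 428 in the fit over probe sets, 68 without control arrays 1 and 3, and 199 to 1131 without 1 array, the lowest without mutant array 3 and the highest without mutant array 2. Fewer arrays in the fit account for part of the lower counts by construction; otherwise the cause was not tested.

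Of the Usp genes given array by array, the sign turned without control arrays 1 and 3 for Usp1 (-0.024), Usp7 (0.113), Usp8 (-0.439), Usp26 (-0.114) and Usp47 (0.0913). With the mean of all probe sets it turned for Usp3 (0.0975), Usp9x (0.209), Usp2 (-0.190), Usp16 (-0.186) and Usp47 (0.163). With array weights it turned for Usp8 (-0.0674), Usp26 (-0.197), Usp16 (-0.00188) and Usp47 (0.0212), and after quantile normalization for Usp47 (0.00130) and Usp44 (0.0150). The other Usp genes are in the count above. Without 1 array, and for those given array by array, the difference ranged from -0.0212 to 0.439 for Usp9y, -0.440 to 0.0793 for Usp9x, -0.00822 to 0.189 for Usp2, -0.277 to 0.0363 for Usp15, -0.113 to 0.373 for Usp8, -0.122 to 0.1998 for Usp26, -0.133 to 0.0311 for Usp29, -0.116 to 0.115 for Usp16, -0.0477 to 0.0880 for Usp47 and -0.126 to 0.0499 for Usp44. The cause was not tested. Signal over the floor limits the 18 Usp genes with a mean under 4.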
